A study of Rattus norvegicus with 18 samples.

Results

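Gene expression in the rat hippocampus was compared between 5 arrays taken right after the first spontaneous seizure (Chronic) and 3 arrays of saline-treated rats (Control). These are 8 of the 18 arrays of the series, chosen by the label of the time and treatment, and the others are 5 arrays each of D3 and D7, the third and the seventh day after status epilepticus (SE). Every array held the total RNA of the hippocampus of 1 male adult Wistar rat on a CodeLink Rat Whole Genome oligonucleotide array. Chronic rats received scopolamine methylnitrate, then pilocarpine, and diazepam once SE had lasted for hours, and were video-monitored and killed within hours of their first spontaneous seizure. The rats of D3 and D7 were treated alike and killed in the latent phase, before spontaneous seizures. Control rats received saline alone and had no SE. Each Control array belongs to a different time, replicate 26 to D3, replicate 36 to D7 and replicate 47 to Chronic, so age is not matched between the groups, and time since injection differs among the Control rats. The interval from SE to the first seizure differs from rat to rat and was not given for each array. Pilocarpine rats without SE, and those that died of it, are not represented. With this few arrays per group, precision is limited throughout.

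In the pilocarpine model, a muscarinic agonist sets off SE, neurons of the hilus, CA1 and CA3 are lost, and after a silent latent phase the animal begins to have seizures of its own. Microglia and astrocytes respond to the dying neurons for weeks, taking up debris, presenting antigen and secreting complement, cytokines and proteases. A seizure in itself also switches on a fast programme in neurons, in which transcription factors such as Fos come first and secreted or synaptic effectors such as Bdnf and Nptx2 follow. The comparison of Chronic with Control therefore reads both the state of the injured tissue and whatever the seizure had set off by the time of death.

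Values are the deposited normalized intensities, with the median spot of an array near 1. Differences are on the log2 scale, Chronic minus Control, with the standard error of the limma model (n = 5 against 3), and adjusted p-values are those of limma with Benjamini-Hochberg adjustment over all 33800 probes tested. A gene was called when it changed 2-fold or more with an adjusted p below 0.05, and its probe with the highest mean level was used. Spots flagged G were good and spots flagged L were dim, and where all Control spots were dim the change is given as a lower bound. The adjusted p printed beside a bound is that of the fitted difference and not of the bound. Of the genes whose rise is printed below, Bcl3, C3ar1, Cd86, Clec7a, F10, Ncf4, Ptprc and Trib1 were good on 1 of the 3 Control arrays. With dim spots raised to the lowest good signal of their array, a setting chosen after the values were seen, these 8 stayed called, and 282 genes were higher and 78 lower. The hippocampal markers Prox1, Calb1, Fibcd1, Neurod2, Slc17a7, Gad1, Pvalb and Sst were flagged G on all 18 arrays. Zbtb20 and Camk2a were flagged G on 17. The share of spots flagged G lay between 66.8% and 73.8% on the 8 arrays. RNA from choroid plexus, which lies beside the hippocampus, differed widely among the arrays: the summed intensity of 16 of its genes ran from 40.3 to 95.6 in Control and from 44.6 to 193 in Chronic. The sum covers genes with a value on all 18 arrays and so leaves out the plexus gene Ttr, which had no usable spot on Chronic 44. The share of choroid plexus RNA in the results was not tested.

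After the first seizure 354 of 12328 genes were higher than in Control and 83 were lower. As a background for every count below, 2.87% of all genes tested were called higher and 0.673% were called lower. The change was largest among the rises: 67 genes rose by at least 2 on the log2 scale and 12 by at least 3, while 3 genes fell by 2 or more. These counts use dim spots as measured. For 75 of the genes called higher all Control spots were dim, so the size of their rise is uncertain. The median of the called genes was 1.49 among those higher and -1.19 among those lower. All 5 Chronic arrays lay above all 3 Control arrays for 316 of the 354 genes called higher, and below them for 75 of the 83 called lower. Over all genes, called or not, the arrays did not overlap for 8.07% in the higher direction and 20.3% in the lower. The excess of small falls stands beside a shift of the whole distribution, since the median of all genes was -0.12 and moved to -0.02 after quantile normalization and to -0.01 with scaling at percentile 75. The shift depended on the level: genes with a Control level over 4 on the log2 scale had a median of -0.28 (1648 genes), which was -0.05 after quantile normalization, and genes under -2 had a median of 0.19 (1708 genes). The share of rises among the called genes was 81.0%, and 86.8% and 89.3% under these other scalings.

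**Figure D1:**
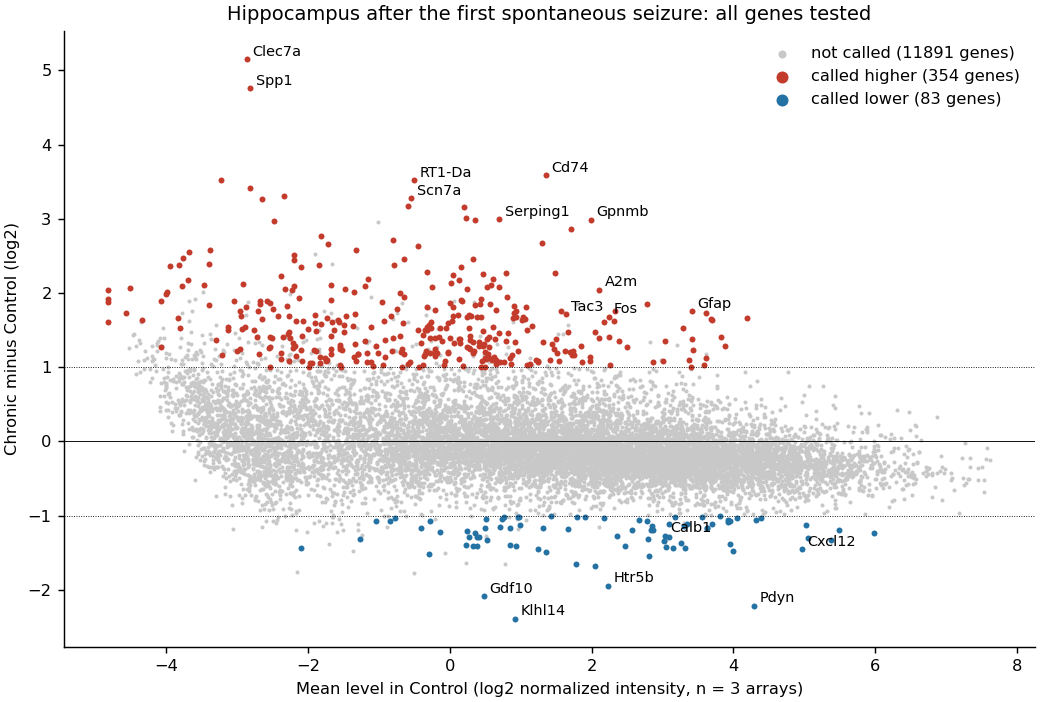
Difference between Chronic and Control (log2, vertical axis) against the mean level in Control (log2 normalized intensity, n = 3 arrays, horizontal axis), with 1 point for each of 12328 genes. Red points are the 354 genes called higher and blue points the 83 called lower, the dotted lines mark a 2-fold change, and the cloud of bright genes at the right lies slightly below 0.

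The counts changed with the arrays used, most of all with the Control arrays. With the Control array of the same time alone, 32 genes were higher and 3 lower, of which 27 and all 3 were among those called with the 3 Control arrays. Without Control 26 and Chronic 41 and 44, the arrays highest in the summed choroid plexus genes among the 8, 163 genes were higher and 29 lower, a setting chosen after the values were seen. Ttr, which that sum leaves out, was about as high on Chronic 45, which was kept, as on Chronic 41. Of 131 genes named by the rule and called, 14 kept the call against the Control array of the same time: A2m, C1qa, Ccl3, Cd8b, Clec7a, Fas, Gfap, Gpc3, Gpnmb, Plau, Scn7a, Serping1, Tnfrsf1a and Tnfsf4. When single Chronic or Control arrays were left out in turn, 80 of the 131 kept the call every time.

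**Figure D2:**
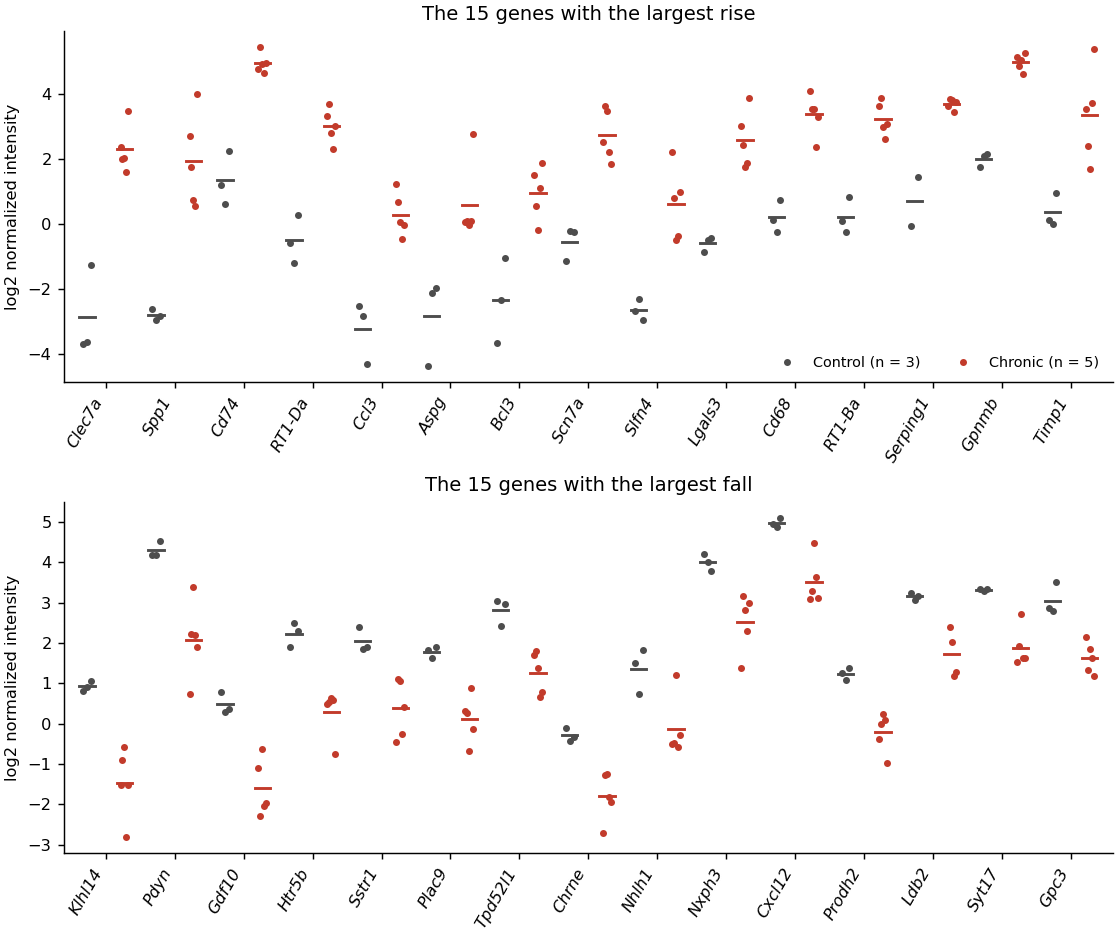
Level of the 15 genes with the largest rise (top) and the 15 with the largest fall (bottom) on each array, as log2 normalized intensity. Grey points are the 3 Control arrays, red points the 5 Chronic arrays and bars the group means, and only for Nhlh1 among the 30 genes do the groups overlap.

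Genes of antigen presentation by MHC class II, Cd74, RT1-Da and RT1-Ba, were among the 15 largest rises. MHC class II molecules carry peptides of ingested proteins to the surface of microglia and other phagocytes, where CD4 T cells read them. Promoters of MHC class II genes often hold a Y box, bound by the factor NF-Y. Many genes of the interferon response and of MHC class I peptide loading have an interferon response element. The promoters of the risen genes of these lists that hold the letters of either motif are shown because the members rose together. The sequences are from RefSeq on the build GRCr8, from 250 bases before to 50 after the start of the gene. Capitals mark the letters CTGATTGG of the Y box in the first pair, and in the others the core of the interferon response element, which is GAAA, then any 2 bases, then GAAA. Both strands were searched, and a match on the opposite strand reads as the reverse complement.
RT1-Da, chr20:4515165-4515464 (+ strand): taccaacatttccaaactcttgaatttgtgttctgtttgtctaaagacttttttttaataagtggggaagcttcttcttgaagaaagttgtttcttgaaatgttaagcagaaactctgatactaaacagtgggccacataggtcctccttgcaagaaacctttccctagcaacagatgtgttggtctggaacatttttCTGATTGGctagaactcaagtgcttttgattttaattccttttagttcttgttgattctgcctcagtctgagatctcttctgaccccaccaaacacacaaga
RT1-Ba, chr20:4576807-4577106 (+ strand): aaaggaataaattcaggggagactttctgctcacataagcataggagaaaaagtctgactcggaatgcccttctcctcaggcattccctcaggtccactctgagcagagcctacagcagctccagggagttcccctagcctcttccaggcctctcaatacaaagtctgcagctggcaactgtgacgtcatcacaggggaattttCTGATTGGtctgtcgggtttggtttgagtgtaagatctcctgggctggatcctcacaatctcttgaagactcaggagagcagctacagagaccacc
Gbp2, chr2:234005477-234005776 (+ strand): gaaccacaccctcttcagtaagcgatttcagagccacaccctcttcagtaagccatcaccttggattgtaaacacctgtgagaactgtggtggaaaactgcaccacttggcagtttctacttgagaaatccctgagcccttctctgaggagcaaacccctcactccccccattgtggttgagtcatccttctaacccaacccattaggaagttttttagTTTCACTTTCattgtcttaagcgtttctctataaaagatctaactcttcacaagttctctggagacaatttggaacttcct
Ifitm3, chr1:205541709-205542008 (- strand): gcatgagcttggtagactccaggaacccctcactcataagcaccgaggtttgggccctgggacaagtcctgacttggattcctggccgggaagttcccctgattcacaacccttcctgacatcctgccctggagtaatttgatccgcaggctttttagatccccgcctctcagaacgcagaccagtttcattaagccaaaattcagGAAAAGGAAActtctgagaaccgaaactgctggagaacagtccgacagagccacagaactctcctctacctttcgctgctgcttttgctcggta
Irgm, chr10:33742529-33742828 (- strand): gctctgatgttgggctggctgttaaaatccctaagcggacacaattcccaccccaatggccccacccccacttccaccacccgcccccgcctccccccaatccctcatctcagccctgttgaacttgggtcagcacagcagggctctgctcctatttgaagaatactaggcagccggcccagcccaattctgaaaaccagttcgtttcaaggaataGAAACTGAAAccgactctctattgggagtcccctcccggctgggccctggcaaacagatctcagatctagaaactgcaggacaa
Psmb8, chr20:4656982-4657281 (- strand): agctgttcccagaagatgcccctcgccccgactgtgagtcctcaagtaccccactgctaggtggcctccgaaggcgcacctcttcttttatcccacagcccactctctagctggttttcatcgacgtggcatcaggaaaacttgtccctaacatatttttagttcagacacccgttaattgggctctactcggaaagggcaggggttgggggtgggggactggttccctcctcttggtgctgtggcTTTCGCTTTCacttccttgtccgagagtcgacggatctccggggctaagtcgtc
Tap1, chr20:4668494-4668793 (- strand): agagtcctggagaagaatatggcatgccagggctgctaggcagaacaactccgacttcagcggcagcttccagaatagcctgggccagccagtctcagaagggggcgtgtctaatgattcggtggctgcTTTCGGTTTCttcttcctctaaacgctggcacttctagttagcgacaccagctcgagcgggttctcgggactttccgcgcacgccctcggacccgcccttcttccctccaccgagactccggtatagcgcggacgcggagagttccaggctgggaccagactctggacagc

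The Y box began 52 bases before the start of RT1-Da and 46 before that of RT1-Ba. Its letters were in 4.62% of all 10721 promoter windows of the genes tested, and in 5 of the 11 windows of the MHC class II list. They were in 2 of the 5 windows of members called higher. Among members not called they were in 3 of 6 windows, those of RT1-Db1, RT1-Bb and RT1-DOa. No match was found for Cd74. The core of the interferon response element was in 2.93% of all windows. In the interferon and MHC class I lists together it was in 5 of the 6 windows of members called higher (all but Psmb9) and in 18 of the 32 windows of members that were not. The letters were thus common in both lists whether or not a member rose, and a match describes the letters of the window and no bound site.

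Of 14 measured MHC class II genes 6 rose and none fell, and the median of the list was 1.34. Cd74, the invariant chain that guides class II molecules through the cell, had intensities of 2.31, 1.52 and 4.75 on Control 26, 36 and 47, and of 27.3, 43.1, 30.1, 25.04 and 30.5 on Chronic 41 to 45. The 5 Chronic arrays were close to one another and far above every Control array, and the rise was 3.59 ± 0.48 (adjusted p = 0.000257). RT1-Da, an alpha chain of class II, had 0.664, 0.438 and 1.21 in Control and 9.902, 12.98, 6.88, 4.92 and 7.98 in Chronic (rise 3.52 ± 0.53, adjusted p = 0.000598). RT1-Ba, the alpha chain of the other classical pair, had 1.06, 0.841 and 1.79 in Control and 12.4, 14.7, 7.899, 6.15 and 8.398 in Chronic (rise 3.01 ± 0.52, adjusted p = 0.00148). For both chains Chronic 42 was the highest array and Chronic 44 the lowest of the 5, and no Control array reached the Chronic range. RT1-DMb, which helps to load the peptide, rose by less, 1.27 ± 0.26 (adjusted p = 0.00393). Ifi30, a lysosomal thiol reductase that unfolds antigens, rose by 2.11 ± 0.32 (adjusted p = 0.000696), and Cd86, a costimulator of T cells, by 1.63 ± 0.33 (adjusted p = 0.00428). In bulk tissue, a change in the number of cells of a type and in the RNA per cell cannot be told apart, here and for every gene that follows.

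Some genes of MHC class I and of the interferon response rose too. In the list of MHC class I presentation and the immunoproteasome 3 of 17 genes rose and none fell (median 0.43). Psmb8, an immunoproteasome subunit, had 2.895, 2.69 and 2.91 in Control and 11.5, 4.16, 5.795, 7.59 and 10.1 in Chronic. All 5 Chronic arrays were above Control, with Chronic 42 the nearest to it (rise 1.38 ± 0.38, adjusted p = 0.0225). The subunit Psmb9 rose by 1.33 ± 0.32 (adjusted p = 0.0115), and Tap1, the peptide transporter, by 1.19 ± 0.35 (adjusted p = 0.0267). Of 33 interferon-stimulated genes 3 rose and none fell (median 0.76), while for 17 of them the Chronic arrays lay wholly above Control. Ifitm3, a membrane protein that blocks virus entry, had 1.35, 1.42 and 2.02 in Control and 7.81, 3.79, 3.31, 5.11 and 8.88 in Chronic, and rose by 1.77 ± 0.37 (adjusted p = 0.00498). Irgm, a GTPase of the interferon response, had 0.579, 0.4699 and 0.554 in Control and 1.34, 1.19, 1.46, 1.07 and 0.904 in Chronic (rise 1.14 ± 0.35, adjusted p = 0.0332). Gbp2, a guanylate-binding protein, was dim on all Control arrays and at least 1.89-fold higher in Chronic (adjusted p = 0.0235), a bound below the 2-fold limit. With dim spots raised, 2 interferon-stimulated genes rather than 3 were called higher. Of the genes named in this paragraph, Ifitm3 kept its call whichever array was left out. Psmb8, Psmb9, Tap1, Gbp2 and Irgm lost theirs without Control 26, at adjusted p from 0.0597 to 0.168, and all but Psmb9 also without Chronic 41.

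Phagocyte genes were among the largest rises. Of 23 phagocyte activation genes 13 rose and none fell (median 1.08). Clec7a, the receptor Dectin-1, had 0.0768, 0.0808 and 0.417 in Control and 5.17, 3.98, 4.06, 3.01 and 11 in Chronic. The lowest Chronic array was above the highest Control array, the only good one of Control, and the rise was 5.15 ± 0.51 (adjusted p = 1.78e-05). With dim spots raised to the lowest good signal it was 3.87 ± 0.40 (adjusted p = 1.57e-05). Spp1, osteopontin, was dim in Control at 0.162, 0.128 and 0.139 and had 6.47, 3.37, 1.66, 1.46 and 16.05 in Chronic. The Chronic arrays themselves differed widely, with Chronic 45 highest and Chronic 43 and 44 lowest, and the level was at least 13.6-fold that of Control (adjusted p = 0.000242). Lgals3, galectin-3, was likewise highest on Chronic 45 and lowest on Chronic 43 and 44, with 0.553, 0.705 and 0.749 in Control and 8.07, 5.31, 3.36, 3.66 and 14.5 in Chronic (rise 3.17 ± 0.42, adjusted p = 0.000234). Gpnmb, a lysosomal glycoprotein of phagocytes, was nearly even in both groups, with 3.35, 4.25 and 4.44 in Control and 35.1, 28.7, 33.1, 24.1 and 38.5 in Chronic, and rose by 2.98 ± 0.22 (adjusted p = 4.75e-07). Igf1, a trophic factor that activated microglia secrete, had 1.705, 1.94 and 1.58 in Control and 12.3, 11.99, 8.18, 4.68 and 7.297 in Chronic (rise 2.27 ± 0.32, adjusted p = 0.000404). Chronic 44 was the lowest of the 5 for Igf1, yet above every Control array.

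Genes that mark resident microglia rose as well. Of 16 microglial identity genes 8 rose and none fell (median 0.99), and their summed intensity was 130 to 149 in Control and 192 to 290 in Chronic. Tyrobp, the adaptor of several microglial receptors, had 17.2, 16.8 and 21.3 in Control and 63.3, 59.1, 55.6, 40.3 and 79.4 in Chronic (rise 1.67 ± 0.27, adjusted p = 0.000943). P2ry12, the receptor for ATP and ADP that steers microglial processes, had 0.804, 1.03 and 0.678 in Control and 1.44, 2.52, 2.68, 1.48 and 1.68 in Chronic. Its groups did not overlap, and its rise was 1.19 ± 0.27 (adjusted p = 0.00768). Tmem119, a membrane protein of resident microglia, differed by 0.43 ± 0.23, which was not called (adjusted p = 0.23). Cx3cr1, the fractalkine receptor, was dim on all Control arrays and not called (adjusted p = 0.147). Further genes of the list that rose were Ptprc, the leukocyte phosphatase CD45 (2.1 ± 0.41, adjusted p = 0.00357), Fcrl2, an Fc receptor-like protein (2.26 ± 0.36, adjusted p = 0.000883), and Slc2a5, a fructose transporter of microglia (1.38 ± 0.31, adjusted p = 0.00699). Aif1 and Itgam, also called, lost the call when single arrays were left out.

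The complement cascade tags synapses and debris for phagocytes, and 9 of its 23 measured genes rose and none fell (median 0.74). The 3 chains of C1q, which start the classical pathway, moved together. C1qa had 12.1, 11.7 and 12.8 in Control and 46.6, 36.2, 34.9, 30.6 and 59.4 in Chronic, every Chronic array being far above Control, and rose by 1.73 ± 0.21 (adjusted p = 0.000117). C1qb rose by 1.64 ± 0.25 (adjusted p = 0.000604) and C1qc by 1.85 ± 0.28 (adjusted p = 0.000584). The protease C2 rose too, with 1.26, 1.4 and 2.39 in Control and 10.7, 5.902, 6.91, 4.73 and 7.43 in Chronic, by 2.09 ± 0.31 (adjusted p = 0.000573). C1s, also called, was good on 1 Chronic array and on no Control array, so no fold is given, and it was not called with dim spots raised. Cfd, the protease of the alternative pathway, rose by 1.6 ± 0.29 (adjusted p = 0.0024). The inhibitor of C1, Serping1, rose most. It had 12.3, 14.4, 14.1, 10.8 and 13.4 in Chronic against 0.966 on Control 26 and 2.73 on Control 47, Control 36 having no usable spot, so the fit used 2 Control values (2.99 ± 0.25, adjusted p = 3.86e-06). C3ar1, the receptor for the C3 fragment, rose by 1.47 ± 0.32 (adjusted p = 0.00574).

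Lysosomal genes followed the phagocyte genes: 10 of 32 rose and none fell (median 0.74), and for 23 of the 32 the Chronic arrays lay wholly above Control. Cd68, a lysosomal membrane protein of macrophages, had 1.09, 0.837 and 1.67 in Control and 17.1, 11.5, 11.6, 5.12 and 9.77 in Chronic (rise 3.16 ± 0.48, adjusted p = 0.000685). Chronic 41 was highest and Chronic 44 lowest, and even the lowest was well above Control. Among proteases of the lysosome Ctsz, cathepsin Z, rose by 2.05 ± 0.4 (adjusted p = 0.00317) and Ctsc, cathepsin C, by 1.29 ± 0.25 (adjusted p = 0.00296). Npc2, which hands cholesterol out of the lysosome, rose by 1.66 ± 0.23 (adjusted p = 0.000389), and Abca1, which exports cholesterol from the cell, by 1.25 ± 0.18 (adjusted p = 0.000463). Abca1 was the only called gene among 26 of sterol synthesis and uptake, whose median was -0.41. The NADPH oxidase that makes superoxide in phagocytes gained its cytosolic subunits Ncf4 (2.77 ± 0.38, adjusted p = 0.000353) and Ncf1 (1.84 ± 0.33, adjusted p = 0.00227). Hmox1, heme oxygenase, had 0.965, 0.683 and 0.895 in Control and 2.79, 2.71, 2.41, 2.504 and 12.3 in Chronic (rise 2.08 ± 0.4, adjusted p = 0.00315). Chronic 45 stood far above the other Chronic arrays for Hmox1.

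Among cytokines, Toll-like receptors and NF-kappaB genes 14 of 45 rose and none fell (median 0.53). Bcl3, an atypical inhibitor protein of NF-kappaB, had 0.07998, 0.199 and 0.484 in Control and 2.81, 1.45, 0.883, 2.15 and 3.64 in Chronic (rise 3.3 ± 0.45, adjusted p = 0.000349). With dim spots raised its rise was 2.47 (adjusted p = 0.00033). Tnfrsf1a, the receptor of TNF, had 1.39, 1.36 and 1.33 in Control and 5.16, 3.75, 2.91, 4.36 and 6.36 in Chronic. The Control arrays were nearly equal and the lowest Chronic array was above them (rise 1.68 ± 0.21, adjusted p = 0.00017), though a further probe of the gene differed by 0.36 and was not called. Cd14, the coreceptor for endotoxin, rose by 2.35 ± 0.45 (adjusted p = 0.00297). Pycard, the adaptor of the inflammasome, rose by 1.95 ± 0.42 (adjusted p = 0.00597), the inflammatory caspase Casp4 by 1.68 ± 0.24 (adjusted p = 0.000475) and the cytokine Il18, which inflammatory caspases release, by 1.54 ± 0.24 (adjusted p = 0.000779). Tnfsf4, the ligand OX40L, was dim in Control and at least 4.08-fold higher in Chronic (adjusted p = 0.00015). The classical cytokines Tnf, Il1a, Il1b and Il6 were measured and not called. Of 32 apoptosis and necroptosis genes 9 rose and none fell (median 0.28). They include the death-side genes Ripk3, the kinase of necroptosis (2.19 ± 0.44, adjusted p = 0.00406), and Fas, and the survival gene Bcl2a1 (2.11 ± 0.36, adjusted p = 0.00153). The direction of Fas depends on the probe: one rose by 1.35 (adjusted p = 0.000241) and the other differed by -0.76 (adjusted p = 0.0116).

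Chemokines moved in both directions, with 5 of 33 higher, 1 lower and a median of 0.35. Ccl3, a ligand that draws monocytes and T cells, was dim on all Control arrays and had 2.32, 1.601, 1.03, 0.722 and 0.977 in Chronic, at least 4.29-fold higher (adjusted p = 5.91e-05). Its neighbour Ccl4 had 3.42, 1.52, 0.6296, 0.772 and 1.21 in Chronic, at least 4.396-fold higher (adjusted p = 0.00346). Both were highest on Chronic 41. Cxcl16, a scavenger receptor and chemokine, rose by 1.42 ± 0.3 (adjusted p = 0.00536). In the other direction Cxcl12, which guides granule cell precursors through the receptor Cxcr4, had 30.7, 29.1 and 34.2 in Control and 8.55, 9.698, 22.4, 12.3 and 8.599 in Chronic. Every Chronic array was below Control, Chronic 43 being the nearest, and the difference was -1.45 ± 0.23 (adjusted p = 0.000866). Ccl2, a ligand for monocytes, was not called, and Chronic 45 stood far above the other Chronic arrays. It had 5.48, 5.96 and 5.77 in Control and 7.57, 5.78, 4.18, 5.08 and 52.6 in Chronic (0.6 ± 0.55, adjusted p = 0.518), and without Chronic 45 the difference was -0.05.

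**Figure D3:**
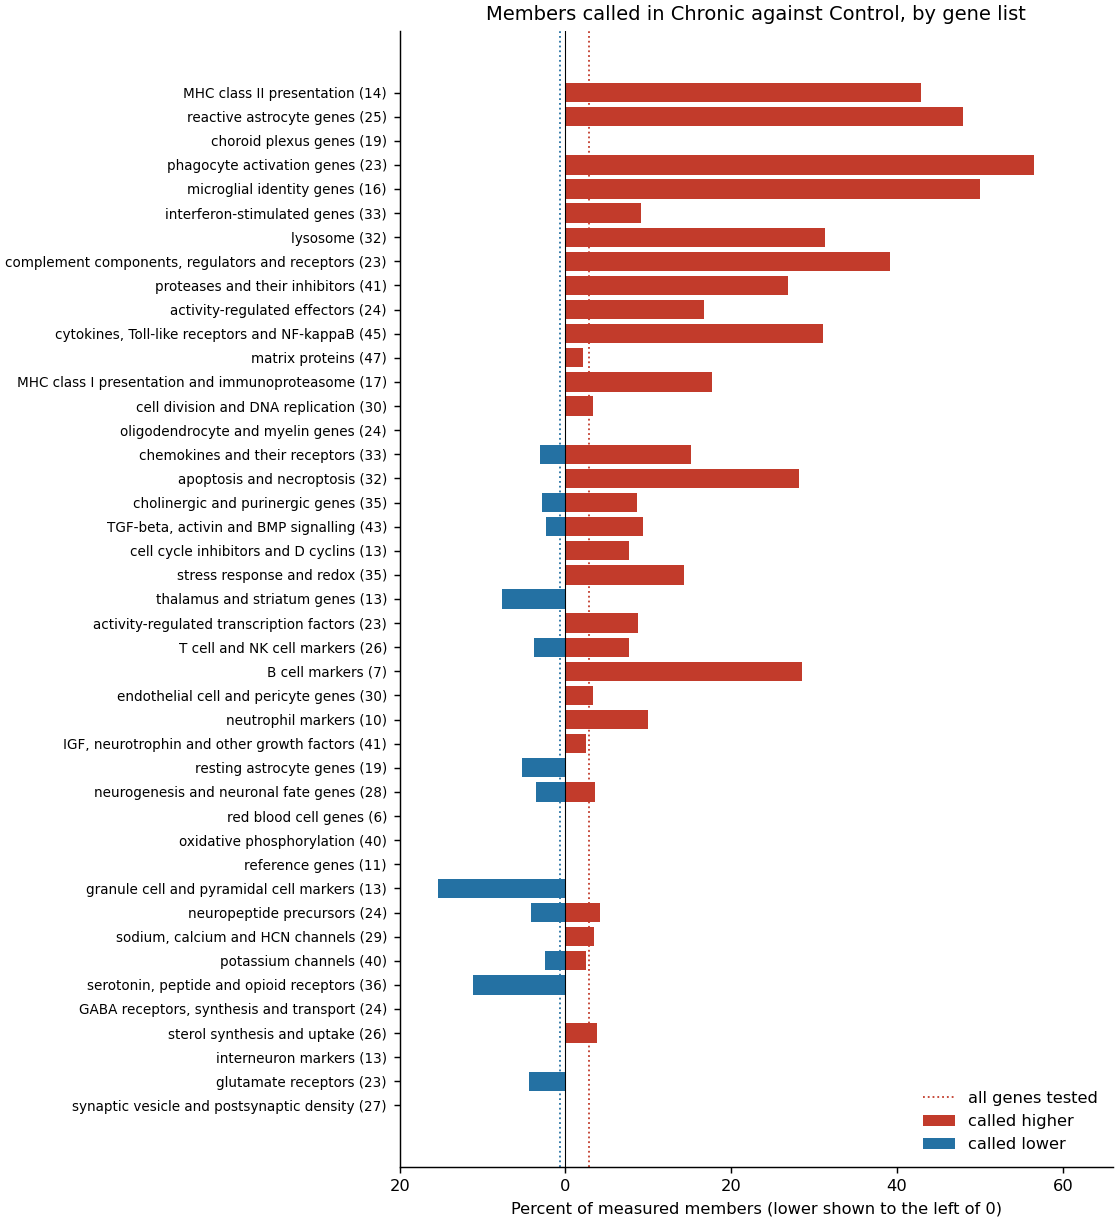
Percent of the measured members of each gene list that were called in Chronic against Control, higher to the right (red) and lower to the left (blue), with the lists ordered by their median difference and the number of measured genes in parentheses. Dotted lines mark the share over all genes tested, and the lists of phagocyte activation (13 of 23), microglial identity (8 of 16) and reactive astrocyte genes (12 of 25) reach farthest to the right.

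Without Control 26 and Chronic 41 and 44, 10 phagocyte activation, 5 microglial identity, 6 complement, 6 MHC class II, 10 lysosomal, 8 cytokine and 6 reactive astrocyte genes were called higher, with medians from 0.47 to 1.76, and no interferon-stimulated gene was. In the same setting 5 apoptosis, 4 protease, 2 chemokine, 1 MHC class I and 1 TGF-beta signalling gene were called higher, and no matrix protein.

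Reactive astrocytes thicken their filaments and secrete acute-phase proteins, and 12 of 25 of their genes rose and none fell (median 1.25). Gfap, the filament protein that defines the reaction, had 9.95, 12.2 and 10 in Control and 25.6, 33.8, 36.95, 34.8 and 54.6 in Chronic. All Chronic arrays lay far above the highest Control array, and the rise was 1.75 ± 0.17 (adjusted p = 1.66e-05). Cp, ceruloplasmin, which oxidises iron, was almost constant on Chronic 42 to 45 and higher on Chronic 41, with 1.24, 1.09 and 2.205 in Control and 8.52, 5.57, 5.62, 5.701 and 5.57 in Chronic (rise 2.09 ± 0.24, adjusted p = 6.53e-05). Timp1, the inhibitor of metalloproteinases, had 1.09, 1.001 and 1.93 in Control and 11.6, 5.24, 3.196, 13.02 and 41.8 in Chronic, and Hspb1, a small heat shock protein, had 2.81, 1.76 and 2.997 in Control and 15.3, 11.1, 6.64, 11.3 and 74.7 in Chronic. Both were highest on Chronic 45 and lowest on Chronic 43, and they rose by 2.98 ± 0.56 (adjusted p = 0.00257) and 2.67 ± 0.52 (adjusted p = 0.00332). Aspg, an asparaginase, was dim in Control and had 1.05, 1.07, 0.975, 1.07 and 6.72 in Chronic, at least 5.301-fold higher (adjusted p = 0.00089). Chronic 45 again stood apart, the other Chronic arrays being within a narrow band. Lcn2, lipocalin-2, had 1.05, 0.717 and 0.854 in Control and 4.53, 2.15, 1.85, 2.97 and 4.08 in Chronic (rise 1.77 ± 0.42, adjusted p = 0.00952), and lost the call without Control 36 (adjusted p = 0.0528). Of 19 genes of resting astrocytes, by contrast, none rose and 1 fell (median -0.12). That gene was Hes5, a Notch target (-1.33 ± 0.37, adjusted p = 0.0228), whose call was lost without Control 36 (0.0692) or Control 47 (0.0997).

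Of 41 proteases and their inhibitors 11 rose and none fell (median 0.57), of which 4 calls were left without Control 26 and Chronic 41 and 44. A2m, alpha-2-macroglobulin, a trap for proteases, had 4.95, 3.61 and 4.48 in Control and 24.1, 16.6, 19.1, 16.1 and 14.4 in Chronic. Its standard error was small for the size of the rise, 2.04 ± 0.15 (adjusted p = 4.75e-07). Plau, the activator of plasminogen, rose by 2.71 ± 0.32 (adjusted p = 0.000111). F10, coagulation factor X, rose by 2.65 ± 0.52 (adjusted p = 0.00335) and Serpinb1a, an inhibitor of neutrophil proteases, by 1.85 ± 0.38 (adjusted p = 0.00427). Of 47 matrix proteins 1 rose and none fell (median 0.44). This was Lox, which crosslinks collagen (1.7 ± 0.52, adjusted p = 0.0343). Its call was lost without Chronic 41 (0.0681), Chronic 45 (0.0689), Control 26 (0.157) or Control 36 (0.119).

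In TGF-beta, activin and BMP signalling 4 of 43 genes rose and 1 fell (median 0.20). The ligand Tgfb1 had 0.696, 0.278 and 0.716 in Control and 1.72, 2.09, 1.82, 1.398 and 2.74 in Chronic, and rose by 1.88 ± 0.32 (adjusted p = 0.00146). Its receptor Tgfbr1 had 4.41, 5.22 and 4.77 in Control and 10.03, 10.5, 10.9, 7.55 and 10.5 in Chronic, where Chronic 44 was apart from the other Chronic arrays but above Control (rise 1.03 ± 0.27, adjusted p = 0.0168). The mean over the probes of Tgfbr1 was 0.49. Tgfb3, another ligand of the family, differed in the opposite direction, by -1.04 ± 0.17 (adjusted p = 0.000913), just past the fold limit and short of it at -0.92 after quantile normalization and -0.93 with scaling at percentile 75. Acvr1c, an activin and nodal receptor, had 3.32, 2.795 and 3.42 in Control and 10.4, 3.895, 5.93, 10.98 and 19.8 in Chronic (rise 1.47 ± 0.37, adjusted p = 0.0125), and its call was lost without Control 36 (0.0606). Gdf10, a secreted member of the TGF-beta superfamily, was among the 15 largest falls, with 1.73, 1.22 and 1.29 in Control and 0.467, 0.203, 0.648, 0.242 and 0.256 in Chronic (difference -2.09 ± 0.46, adjusted p = 0.00665). Runx1, a transcription factor of blood cells and microglia, had 0.593, 0.828 and 0.477 in Control and 2.49, 1.57, 1.61, 2.62 and 5.51 in Chronic (rise 2.0 ± 0.38, adjusted p = 0.00304).

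A list of 19 measured genes that the study picked out was chosen on these samples and is no independent evidence. In it 8 genes were called higher and Ldb2, a LIM domain-binding protein, lower (-1.43 ± 0.32, adjusted p = 0.00698, 4 Chronic values in the fit), with a median of 0.36. Called there were Runx1, Tgfb1, Igf1, Gfap, Casp4 and Gadd45a, and also Foxd3 and Pik3c2b, whose spots were dim on all 8 arrays, so that no fold is given for them.

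The genes that a seizure switches on varied widely among the Chronic rats. Of 23 activity-regulated transcription factors 2 rose and none fell (median 0.06). Fos, the first of them, had 7.34, 3.25 and 4.44 in Control and 22.97, 11.01, 5.703, 19.7 and 27.8 in Chronic. Chronic 43 lay within the Control range and the other 4 above it (rise 1.68 ± 0.43, adjusted p = 0.015). The call of Fos was lost without Control 36 (adjusted p = 0.0905), and the other Fos probe differed by 0.49 (adjusted p = 0.264). Maff, a small Maf factor, had 0.916, 0.825 and 0.613 in Control and 3.09, 1.503, 0.753, 2.82 and 4.15 in Chronic, again with Chronic 43 in the Control range (rise 1.44 ± 0.42, adjusted p = 0.026). Maff lost the call without any 1 of Chronic 41, Chronic 45 and the 3 Control arrays (adjusted p from 0.0554 to 0.095). Fosb had 1.05, 0.564 and 0.632 in Control and 2.29, 1.03, 0.631, 3.11 and 3.93 in Chronic and was not called (1.31 ± 0.55, adjusted p = 0.117), but without Chronic 43 it was, at 1.68 (adjusted p = 0.0329).

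Among the activity-regulated effectors 4 of 24 rose and none fell (median 0.53). Inhba, the subunit of activin A that synaptic activity induces, had 0.919, 0.676 and 0.817 in Control and 5.13, 1.93, 0.992, 8.51 and 10.6 in Chronic. Chronic 43 was barely above the highest Control array and Chronic 45 was highest (rise 2.28 ± 0.64, adjusted p = 0.0222). Ptgs2, cyclooxygenase-2, followed the same order with 8.75, 12.7 and 10.9 in Control and 29.7, 16.7, 13.3, 46.3 and 53.9 in Chronic (rise 1.38 ± 0.43, adjusted p = 0.0364). Inhba lost its call without any 1 of the Control arrays (0.0563 to 0.0874), and Ptgs2 without any of them or any 1 of Chronic 41, 44 and 45 (0.0685 to 0.141). Gadd45a, a stress and demethylation factor, was steadier, with 1.95, 1.96 and 2.23 in Control and 5.55, 4.65, 4.84, 6.11 and 15.3 in Chronic, and kept its call whichever array was left out (rise 1.67 ± 0.27, adjusted p = 0.000926). Trib1, a pseudokinase, rose by 1.25 ± 0.34 (adjusted p = 0.0189), a call lost without Control 36 (0.0823) or Control 47 (0.0715). Nptx2, a pentraxin that clusters AMPA receptors, had 3.77, 2.91 and 3.83 in Control and 14.03, 5.44, 3.81, 27.7 and 38.7 in Chronic and was not called (1.85 ± 0.65, adjusted p = 0.0604). Without Chronic 43 its difference was 2.28 (adjusted p = 0.0177). Bdnf, the neurotrophin, differed by 1.5 ± 0.67 (adjusted p = 0.138). The classical activity gene Arc was near 0 on average (-0.04 ± 0.57, adjusted p = 0.975). Relative to the Control mean, Arc was at 0.03, -0.56, -1.63, 1.29 and 0.68 on Chronic 41 to 45. Homer1 differed by -0.2 ± 0.18 (adjusted p = 0.492) on its brightest probe and by -0.20 (adjusted p = 0.366) on another. A further Homer1 probe, good on all 8 arrays, differed by 1.28 ± 0.71 and was not called (adjusted p = 0.248).

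Without Control 26 and Chronic 41 and 44 no transcription factor of the list and 1 effector was called higher. Against D3 and D7 no gene of either list was called. The medians were 0.25 and 0.25 for the factors and 0.25 and 0.31 for the effectors. List means relative to Control ran from -0.25 to 0.04 and from 0.06 to 0.54 at D3. At D7, in the latent phase, they ran from -0.43 to 0.67 and from -0.20 to 1.06, both highest on D7 31. Chronic 43 was at the low end in both lists. It was the lowest of the 5 Chronic arrays for 30 of the 45 activity-regulated genes with a value on all 5, or 66.7%, against 16.4% of all 12058 such genes. At the high end the lists parted. Chronic 45 was the highest for 16 of 23 effectors and for 7 of 22 transcription factors, or 31.8%, against 29.1% of all genes, and Chronic 41 was the highest for 8 of the 22. The mean of the effectors relative to Control was 0.68, 0.19, -0.16, 1.06 and 1.35 on Chronic 41 to 45. Choroid plexus genes were also lowest on Chronic 43, with list means of 2.20, 0.68, -1.10, 2.00 and 0.62 on the same arrays. The orders of the list means thus agree at Chronic 43 and part at Chronic 45. Single genes can differ: Ttr, given below, had no usable spot on Chronic 44 and was about as high on Chronic 45 as on Chronic 41. The part of choroid plexus in the activity genes was not tested, nor was the time from the seizure to death, which the labels do not give for each rat. The letters TGACGTCA of the cAMP response element, through which CREB acts, were in 9 of 36 promoter windows of the activity lists and in 2.78% of all windows. They were in the window of 1 of the 4 members called higher that had a window, Maff, and in 8 of the 32 of members not called higher.

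**Figure D4:**
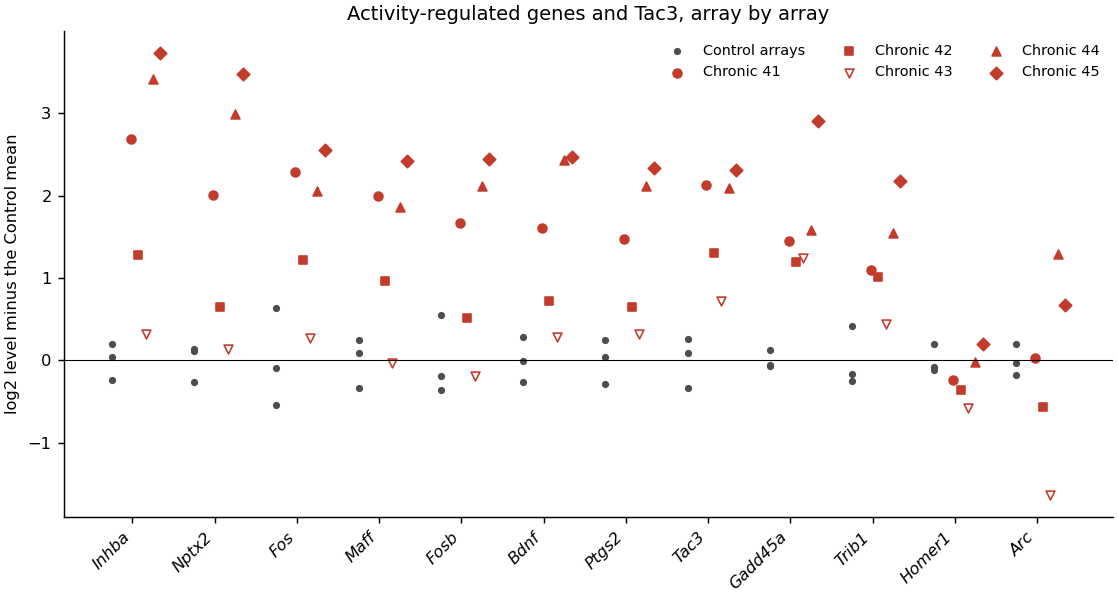
Level of 11 activity-regulated genes and Tac3 relative to the Control mean (log2, vertical axis), array by array. Grey points are the 3 Control arrays and each red symbol is 1 Chronic array. The open symbols of Chronic 43 lie nearest to the Control points for most genes. The means of Arc and of the Homer1 probe shown are near 0.

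Neuropeptide genes gave 1 rise and 1 fall among 24, with a median of -0.31, and without Control 26 and Chronic 41 and 44 no call (median -0.19). Tac3, the precursor of neurokinin B, had 2.46, 3.71 and 3.29 in Control and 13.6, 7.66, 5.13, 13.3 and 15.5 in Chronic. All Chronic arrays were above Control, with Chronic 43 lowest, and the rise was 1.71 ± 0.3 (adjusted p = 0.00161). It kept the call whichever Control or Chronic array was left out. Pdyn, the precursor of dynorphin, the opioid of granule cells that damps their release, had 18.02, 18.2 and 23.2 in Control and 1.66, 4.63, 10.5, 4.56 and 3.73 in Chronic. Every Chronic array was below Control and Chronic 43 was nearest to it (difference -2.21 ± 0.5, adjusted p = 0.00721).

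The receptors that fell included several for inhibitory peptides and amines. Of 36 serotonin, peptide and opioid receptors 4 fell and none rose (median -0.38), and without Control 26 and Chronic 41 and 44 none was called (median -0.23). Htr5b, a serotonin receptor, had 3.74, 5.64 and 4.94 in Control and 1.39, 1.44, 1.56, 1.49 and 0.589 in Chronic, even on 4 arrays and lower still on Chronic 45 (difference -1.94 ± 0.45, adjusted p = 0.00844). Sstr1, a somatostatin receptor, had 5.25, 3.62 and 3.76 in Control and 0.727, 2.16, 2.07, 0.8396 and 1.34 in Chronic (difference -1.68 ± 0.39, adjusted p = 0.00933). Its call was lost without Control 26 (adjusted p = 0.0551). Npy1r, the Y1 receptor of neuropeptide Y, had 7.35, 5.98 and 8.32 in Control and 2.63, 3.702, 4.86, 2.59 and 2.45 in Chronic (difference -1.19 ± 0.24, adjusted p = 0.00422), yet a further good probe of this gene differed by -0.09 (adjusted p = 0.724). Oprl1, the nociceptin receptor, fell by 1.05 on the log2 scale (adjusted p = 0.00627) and was at -0.94 with scaling at percentile 75, inside the fold limit. Chrm4, an inhibitory muscarinic receptor, had 8.45, 6.88 and 6.398 in Control and 2.85, 4.08, 3.47, 3.98 and 2.27 in Chronic (difference -1.14 ± 0.28, adjusted p = 0.0113). Its call was lost without Control 26 (0.0634) and, at -0.99, after quantile normalization. Pilocarpine, the drug that set off SE, acts on muscarinic receptors. Among 35 cholinergic and purinergic genes 3 rose and Chrm4 alone fell (median 0.22). The rises were those of the microglial receptors P2ry6 (1.46 ± 0.3, adjusted p = 0.00456) and P2ry12, and of Nt5e, the ectoenzyme that makes adenosine from AMP (1.1 ± 0.2, adjusted p = 0.00237). Outside the list Chrne, a nicotinic acetylcholine receptor subunit, was called lower too, at -1.51 with 1 of 5 Chronic spots good. With dim spots raised it was at -1.28 and still called.

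Genes of neurons and synapses as groups were a little lower than the bulk of genes, and few passed the test. Of 23 glutamate receptor genes 1 fell (median -0.42), Grin3a, an NMDA receptor subunit, by 1.20 (adjusted p = 0.0199), a call that was lost without any 1 of the Control arrays. No gene was called among 24 of GABA receptors, synthesis and transport (median -0.40), 27 of synaptic vesicles and the postsynaptic density (median -0.42) and 13 interneuron markers (median -0.42). For 15 of the 24 GABA genes the Chronic arrays lay wholly below Control. Gad1, which makes GABA, differed by -0.65 ± 0.13 (adjusted p = 0.00364), short of 2-fold. Oxidative phosphorylation genes, bright and steady, had a median of -0.23 in 40 genes, which was -0.00 after quantile normalization, and the reference gene Gapdh differed by -0.59 ± 0.1. After quantile normalization the medians were -0.38 for glutamate receptors, -0.22 for GABA genes, -0.31 for synaptic genes and -0.30 for interneuron markers, so part of each difference moved with the scaling.

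Markers of granule cells and pyramidal cells gave 2 falls among 13 (median -0.28), and no call without Control 26 and Chronic 41 and 44 (median -0.51). Calb1, the calcium-binding protein calbindin of granule cells and CA1, had 8.58, 8.54 and 7.46 in Control and 2.17, 3.12, 4.03, 3.18 and 5.13 in Chronic. The groups were well apart (difference -1.27 ± 0.28, adjusted p = 0.00658). Fibcd1, a marker of CA1, fell by 1.33 (adjusted p = 0.0166), a call that was lost without Control 26 (0.0597) or Control 36 (0.0588). Prox1, a defining transcription factor of granule cells, differed by 0.51 ± 0.17 and was not called (adjusted p = 0.0561). The summed intensity of 11 of these markers was 166 to 181 in Control and 88.0 to 133 in Chronic. Syt17, a synaptotagmin-related protein, had 10.03, 9.795 and 10.1 in Control and 2.89, 3.803, 6.601, 3.07 and 3.11 in Chronic, Chronic 43 again being nearest to Control (difference -1.43 ± 0.27, adjusted p = 0.00271). The largest fall was that of a probe for Klhl14, a kelch-like protein, at -2.39 ± 0.45 (adjusted p = 0.00287), while its other probe differed by 0.37 (adjusted p = 0.534).

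Ion channels gave few calls. Of 29 sodium, calcium and HCN channel genes 1 rose and none fell (median -0.34). This was Scn7a, an atypical sodium channel that glia and some neurons use to sense sodium, with 0.449, 0.856 and 0.8401 in Control and 5.73, 12.4, 10.97, 4.61 and 3.59 in Chronic. Chronic 42 and 43 were highest, an order unlike that of the activity genes, and the rise was 3.28 ± 0.37 (adjusted p = 6.53e-05). Of 40 potassium channel genes 1 rose and 1 fell (median -0.35). Kcnn4, the intermediate calcium-activated channel of microglia, rose by 1.01 ± 0.31 on the brighter probe (adjusted p = 0.0343) and the other probe, dim in Control, was called higher too. Kcnip3, a calcium-binding partner of A-type channels, fell by 1.07 (adjusted p = 0.0399), and 1 of 5 Chronic spots was good. With dim spots raised it was at -0.72, inside the fold limit. The calls of Kcnn4 and Kcnip3 were lost when single arrays were left out.

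Other blood and border cells were traced through their markers. Of 26 T cell and NK cell markers 2 rose and 1 fell (median 0.04, and -0.06 after quantile normalization). Cd8b, a chain of the CD8 coreceptor, had 0.123, 0.0759 and 0.0935 in Control, where it was dim, and 0.848, 0.6247, 0.452, 0.334 and 0.769 in Chronic, at least 2.01-fold higher (adjusted p = 0.000257). Cd5, also dim in Control, was at least 1.53-fold higher on 1 probe (adjusted p = 0.00752), a bound below the 2-fold limit, and its other probe was not called. With dim spots raised, 1 gene of this list rather than 2 was called higher. Of the defining genes Cd4 and Cd2 were good on 1 of 18 arrays each and Cd8a on 3, whereas Cd3d was good on 16 and Cd3e on 18. The summed intensity of 24 of these markers, among them Thy1, which neurons also express, was 132 to 166 in Control and 102 to 119 in Chronic. Of 7 B cell markers 2 rose, Cd22, a sialic acid-binding receptor (at least 4.93-fold, adjusted p = 0.00639), and Blnk, which lost the call when single arrays were left out (median of the list 0.02, and -0.01 after quantile normalization). Of 10 neutrophil markers Lcn2 alone rose (median -0.02), a gene that reactive astrocytes also make. Of 30 endothelial and pericyte genes Icam1 alone rose (1.69 ± 0.31, adjusted p = 0.00246, list median -0.02). Another good probe of Icam1 differed by 0.58 (adjusted p = 0.0239), short of 2-fold, and a further probe, dim in Control, was called higher. Oligodendrocyte and myelin genes gave no call among 24 (median 0.37). Of 13 genes of thalamus and striatum, which border the hippocampus, 1 fell and none rose (median 0.08). After quantile normalization 1 rose and none fell (median 0.28).

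Choroid plexus genes gave no call among 19 with a median of 1.19, and the arrays of each group were widely scattered. Ttr, transthyretin, the chief secreted protein of the plexus, had 225, 5.16 and 70.3 in Control and 164, 99.99, 4.48 and 166 on Chronic 41, 42, 43 and 45, Chronic 44 having no usable spot. F5, coagulation factor V, had 6.98, 0.152 and 1.94 in Control and 15.4, 4.59, 0.376, 22.5 and 3.72 in Chronic. The same arrays were low for both genes, Control 36 and Chronic 43. The median of the list moved between 0.30 and 1.69 as single arrays were left out. Of the 15 good genes with the largest spread in Chronic, 3 belong to this list (F5, Otx2 and Col8a1). Kcne2, Mfrp, Cltrn and Abca4, outside the list, are also among the 15. Relative to the Control mean, Kcne2 was at 2.87, 0.75, -1.29, 2.71 and 0.79 on Chronic 41 to 45. Mfrp was at 3.32, 1.42, -1.06, 2.97 and 1.18. Both were highest on Chronic 41 and lowest on Chronic 43, as the list means were, and the part of choroid plexus in their spread was not tested. Others are the activity gene Inhba (standard deviation 1.45), Nptx2 (1.45), Spp1 (1.44), Timp1 (1.42) and Ccl2 (1.49, against 0.0607 in Control). Over the 8478 genes good on all arrays the median standard deviation was 0.206 in Chronic and 0.125 in Control (0.204 at D7, 0.131 at D3).

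Against the earlier times the Chronic arrays differed mainly from D3. Compared with D3, 15 genes were higher (0.122% of those tested) and 123 lower (0.998%). Genes of cell division led the difference: of 30 genes of cell division and DNA replication 21 were lower than at D3, and the median of the list was -1.90. Pbk, a mitotic kinase, was lower by 3.47 on the log2 scale (adjusted p = 1.11e-05), Cdk1, the kinase of mitosis, by 3.25 (adjusted p = 2.27e-05) and Top2a, topoisomerase, by 3.05 (adjusted p = 8.53e-05). Against Control these 3 genes were not called, at 0.89, 0.62 and 0.70. Mki67, the proliferation antigen, was dim in Control and at least 1.81-fold higher in Chronic (adjusted p = 0.0419), while it was lower than at D3 by 2.81 (adjusted p = 0.000115). The call of Mki67 against Control was lost without single arrays and with dim spots raised. Of reactive astrocyte genes 6 of 25 were lower than at D3 (median -0.39), of matrix proteins 7 of 47 (median -0.37) and of phagocyte activation genes 3 of 23 (median -0.29). No gene of MHC class II presentation was called against D3 or D7, and the medians were -0.11 and 0.04. The granule cell factor Prox1 was higher than at D3 by 1.27 ± 0.15 (adjusted p = 7.97e-05). Hcrtr1, an orexin receptor, was higher than at D3 by 1.28 ± 0.29 (adjusted p = 0.0224) and than Control by 1.4 ± 0.33 (adjusted p = 0.0108), with no usable spot on Chronic 42. Ecrg4, a secreted peptide precursor made by choroid plexus and other cells, was higher than at D3 by 1.19 ± 0.27 (adjusted p = 0.0217) and than Control by 1.26 ± 0.3 (adjusted p = 0.00971), with 4 D3 values in the fit. Both calls against D3 were lost without single arrays, and that of Hcrtr1 against Control without Control 26 (0.0703) and with the 8 arrays alone (0.0577).

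Compared with D7, 3 genes were higher (0.0243%) and 2 lower (0.0162%). Tac3 was among those higher, by 1.63 ± 0.26 (adjusted p = 0.0135), and was also higher than at D3, by 1.18 ± 0.26 (adjusted p = 0.0158). On the log2 scale the D3 arrays had Tac3 levels of 1.87, 1.81, 2.47, 2.24 and 2.47. The D7 arrays had 1.45, 2.14, 1.44, 2.17 and 1.37, and the Chronic arrays 3.77, 2.94, 2.36, 3.73 and 3.95. Chronic 43 lay among the D3 arrays, and the other Chronic arrays lay above all of D3 and D7. The difference from D7 was not called when the 10 arrays were fitted alone (adjusted p = 0.109), nor that from D3 without D3 12 (0.0559) or Chronic 41 (0.0505). Usf3, a transcription factor, had log2 levels of 2.67, 2.54, 2.09, 2.35 and 1.90 at D7 and 3.30, 3.37, 3.36, 3.36 and 3.29 in Chronic, wholly apart. It was higher by 1.02 ± 0.12 than at D7 (adjusted p = 0.000856) and by 1.01 ± 0.12 than at D3 (adjusted p = 6.05e-05), and it did not differ by 2-fold from Control. Without D7 33 or 35 its difference from D7 was 0.97 or 0.92, inside the fold limit. Lyve1, a hyaluronan receptor of border macrophages and lymphatic vessels, had log2 levels of 1.39, 0.66, 0.71, 1.71 and 1.6 at D7, 0.41, 0.03, -0.31, -0.08 and -0.15 in Chronic and 0.07, -0.23 and 0.12 in Control. D3 12 had no usable spot, so the fit used 4 D3 values. Chronic was at the level of Control and below D7 (-1.23 ± 0.23, adjusted p = 0.0359) and D3 (-1.32 ± 0.25, adjusted p = 0.00546). Zfp652 was higher than at D7 on its brighter probe (2.18 ± 0.44, adjusted p = 0.0497), while its other probe differed from D7 by -0.007. The calls of Zfp652 and Lyve1 against D7 were lost when most single arrays were left out.

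**Figure D5:**
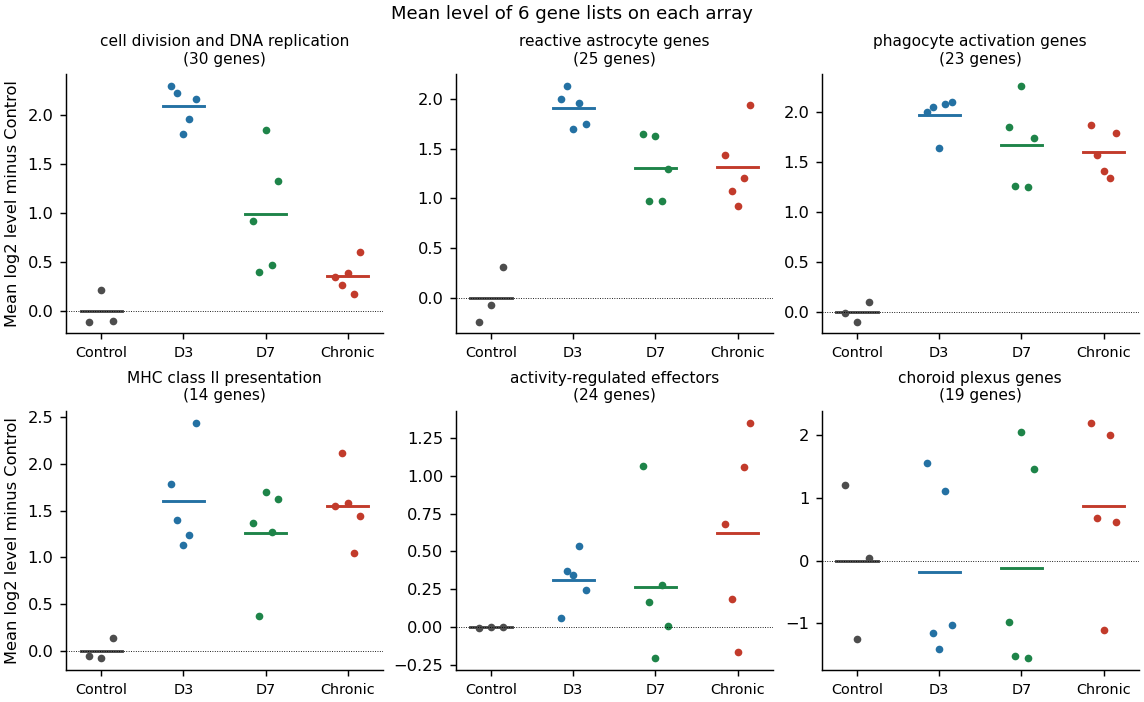
Mean log2 level of 6 gene lists relative to Control on each of the 18 arrays, with points for arrays, bars for group means, and 1 panel for each list. Cell division genes were high at D3 and lower in Chronic, the MHC class II and phagocyte lists were above Control at all 3 times, and the choroid plexus list was scattered within every group.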

How the data were processed

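Total RNA of 18 rat hippocampi was hybridised to 1-colour CodeLink arrays, 1 array per rat. According to the methods, the authors scanned the arrays with a GenePix scanner and corrected the background and normalized the values with the CodeLink software. The deposited values are normalized intensities, spot minus local background divided by 1 constant per array, which puts the median spot near 1. No slide or scan date was used.

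Gene probes flagged G or L were kept and others (0.699%) set to missing. Values were raised to percentile 1 of each array's positive values and log2-transformed. A probe needed 3 values in each pilocarpine group and 2 in Control, which left 33800 probes. The test was limma 3.58.1 in R 4.3.3, 1 model of 4 groups with an intensity trend and no covariate, so D3 and D7 share in the estimate of the spread. It was tested on simulated data. P-values were adjusted over all probes.

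Probes were named from GEO's platform annotation, and 16909 stayed unnamed. A lower bound divides the Chronic mean by the higher of each Control array's spot and its lowest good signal. Of 44 gene lists, all called members up to 8 were named, and in the marker, control, activity and study lists the first 3 measured genes too. Further named were the 15 largest rises and falls, the 10 largest differences from D3 and D7 in each direction, and the 15 most variable genes in Chronic. Counts of lists use every measured member. Classical cytokines, Thy1 and the windows without a call were named outside this rule, and 4 genes it names are not reported here. The members and lists were chosen with earlier results of these data known. Nothing states that arrays were technical repeats, and p-values measure the spread between these rats.

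Promoter sequences were read from the RefSeq table of GRCr8, which matched 10114 of the genes tested. Alternatives covered scaling, flags, floor, arrays, prior, test, fold limit and probe.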

Additional observations from a re-analysis of the deposited data

Results flagged for a closer look

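Among 145 named genes with 5 values in Chronic, 10 had 1 array set apart from the other 4 by Dixon's ratio (the gap to the nearest array over the range), above the critical value of 0.71. Chance alone sets about 1 in 20 groups apart. Chronic 45 was the array apart for Aspg (ratio 0.952), Hmox1 (0.909), Htr5b (0.884), Gadd45a (0.770) and Tnmd (0.764), being the highest array for Aspg, Hmox1 and Gadd45a and the lowest for Htr5b and Tnmd. Chronic 41 was apart for Cp (0.945) and Cybb (0.714), Chronic 44 for Laptm5 (0.835) and Tgfbr1 (0.779), and Chronic 43 for Nhlh1 (0.824).

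The other results singled out were named genes whose level after the first seizure differed from an earlier time in the limma test of that difference, with Benjamini-Hochberg adjustment. Against D7 these were Zfp652 (2.18 on the log2 scale, and -0.007 on its other probe), Tac3 (1.63), Usf3 (1.02) and Lyve1 (-1.23). Against D3 the higher genes were Lbhd2 (2.28), Hcrtr1 (1.28), Prox1 (1.27), Ecrg4 (1.19), Tac3 (1.18) and Usf3 (1.01). Lower than at D3 were the division genes Pbk (-3.47), Pimreg (-3.25), Cdk1 (-3.25), Top2a (-3.05), Mki67 (-2.81) and Mcm5 (-2.81). Lower than at D3 were also the myeloid and acute-phase genes Lilrb4 (-2.87), Cd300c2 (-2.75), Lcn2 (-2.47), Cybb (-1.49), Lgals3 (-1.35), Lyve1 (-1.32) and Fcrl2 (-1.28). Few of the 5 Chronic spots were good for Pimreg (1), Mcm5 (2) and Lilrb4 (1), so the size of these differences is uncertain. The call of Lgals3 was lost without each of 9 single arrays, after quantile normalization (adjusted p = 0.0622) and with scaling at percentile 75 (0.0625), and that of Fcrl2 without each of 8 single arrays. Calls lost without fewer single arrays were those of Ecrg4, Usf3, Hcrtr1, Lbhd2 and Tac3 against D3.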

How the results depend on the processing

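Of the named genes called, those that changed sign under an alternative were Foxd3 and Pik3c2b (both -0.0158 with dim spots raised), which are dim in both groups. Of 71 differences not called, 21 changed sign, such as that of Arc (0.36 without Chronic 43). Of 131 called against Control, 116 kept the call after quantile normalization, 126 with scaling at percentile 75, 131 with the series value table, 128 with the floor at percentile 5, 125 with the 8 arrays alone, 121 without the trend 120 with dim spots raised and 48 by the methods' t-test after adjustment. With good spots alone 96 of 100 tested did, and without Control 26 and Chronic 41 and 44, chosen after seeing the data, 59 of 128. No paired analysis was possible because no replicate number occurs in more than 1 group. Background correction with normexp was not run, since the intensities are already background-subtracted, and neither was a block for slide or scan date. The cause of the changes below was not tested, except that fewer arrays were used in some and no fold limit in 1.

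Against Control 354 genes were called higher and 83 lower (770 and 207 probes). Genes higher were 228 with good spots alone, 150 by the t-test after adjustment, 32 with the same-time Control array, 163 without the 3 arrays and 774 with no fold limit. Genes lower were 51 after quantile normalization, 52 with scaling at percentile 75, 21 by the t-test, 3 with the same-time Control array, 29 without the 3 arrays and 1567 with no fold limit. Probes higher were, in the order first given, 348, 286, 69, 289 and 1643, with 460 where dim spots were raised, and probes lower, in the second order, 130, 121, 61, 13, 58 and 3311. Leaving out single arrays gave 250 to 392 genes higher and 60 to 114 lower (516 to 862 and 144 to 295 probes), lowest without Control 26.

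Against D3 the counts were 15 genes higher and 123 lower (66 and 185 probes). Genes higher were 5 by the t-test after adjustment and 60 before, 5 without the 3 arrays and 87 with no fold limit. Probes higher were 35 after quantile normalization, 15 with good spots alone, 26 and 320 by the t-test, 13 without the 3 arrays, 25 with dim spots raised and 273 with no fold limit. Genes lower were 80 without the 3 arrays and 389 with no fold limit, and probes lower 116 with good spots, 120 without the 3 arrays and 648 with no fold limit. Single arrays left out gave 8 to 25 and 102 to 154 genes (35 to 78 and 140 to 241 probes), with 8 genes higher without Chronic 41 and 25 without Chronic 43.

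Against D7 the counts were 3 genes higher and 2 lower (7 and 10 probes). Genes higher were 1 with the 10 arrays alone, 0 by the t-test after adjustment and 26 before, 1 without the 3 arrays and 17 with no fold limit. Genes lower were 1 with good spots, 0 with the 10 arrays alone, 1 without the trend, 0 and 55 by the t-test, 0 without the 3 arrays and 10 with no fold limit. Probes higher were 2 with good spots, 3 with the 10 arrays, 0 and 91 by the t-test, 1 without the 3 arrays and 33 with no fold limit, and probes lower 5, 0, 0 and 239, 0 and 27. Single arrays left out gave 1 to 8 and 0 to 5 genes (2 to 15 and 6 to 14 probes), with 8 genes higher without Chronic 43 and 0 lower without D7 31.

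Where a gene has several probes, the mean over them moved most for Fas (0.30), Npy1r (-0.33), Tgfbr1 (0.49), Hes5 (-0.63), Klhl14 (-1.01), Slfn4 (1.52) and Plau (1.59). Dim spots limit what can be read of genes near background, and all Control spots were dim for 75 of the genes called higher.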

Other observations

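Ndn, the imprinted gene of necdin, took 1 of 2 levels with nothing between. On the log2 scale Control 26 and 47 were at 5.67 and 5.41 and Control 36 was at -1.36, and Chronic 41, 42, 43 and 45 were between 4.80 and 4.94 and Chronic 44 was at -0.85. D3 14 (-0.80), D7 32 (-0.40) and D7 35 (-0.74) were at the low level too, and the remaining D3 and D7 arrays were between 4.76 and 5.48. The low level thus occurred in 5 of the 18 rats and in every group. It made Ndn the gene with the largest standard deviation in Chronic, 2.56, and no call rests on it.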
